A study of Mus musculus with 25 samples.

Results

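A group of 8 genes of late neutrophil granules and S100 proteins is described here across the cells of the injured mouse spinal cord: S100a8, S100a9, Lcn2, Ngp, Camp, Ltf, Retnlg and Wfdc21. They were taken by symbol from the raw count matrices, which held all 8 of them among 22439 genes, and the members are a named list with no threshold on a measured value. The series measured single myeloid cells by droplet 3′ RNA-seq, in which each count is a unique molecular identifier (UMI) that marks 1 captured mRNA molecule. Cells came from 5 mm of cord around a spinal cord injury, or after laminectomy alone (Ctrl), the surgery that exposes the cord. Tissue was homogenised, myelin was removed on a Percoll gradient, and myeloid cells were sorted by fluorescence. Injured cords were taken 1, 2, 3, 10 or 21 days later, which gives the groups D1, D2, D3, D10 and D21, and each library holds tissue of 1 to 3 mice.

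All mice carried Cx3cr1CreERT2, an inducible Cre recombinase under the Cx3cr1 locus, which is active in microglia and in many monocytes. In 12 mixed libraries the strain was Cx3cr1CreERT2 alone and all YFP+ cells were sorted. In the other libraries the strain was Cx3cr1CreERT2:R26tdTomato, whose red reporter marks cells that had active Cre. There, RFP+/YFP+ cells were sorted as resident (5 libraries) and RFP-/YFP+ cells as infiltrating (7 libraries), so sort and strain differ together. The title of 1 further D3 library reads infiltrating while its sort label reads RFP+/YFP+. It is called D3_conflict 1, and it was kept out of every main test. The mixed control library was female and the resident control library male, and the mixed D1 libraries were all male.

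The 8 genes encode products that developing neutrophils store for later release. S100A8 and S100A9 pair to form calprotectin, a cytosolic protein that binds calcium, zinc and manganese and that acts on Toll-like receptor 4 when released. Neutrophils build their granules in sequence in the bone marrow, and the messages for secondary granule proteins are highest in immature stages and low in circulating cells. Secondary granules hold LTF (lactoferrin, which binds iron), CAMP (the cathelicidin precursor), NGP (neutrophilic granule protein) and LCN2 (which captures iron-carrying bacterial siderophores). Retnlg encodes a resistin-like secreted protein, and Wfdc21 a small secreted protein with a whey acidic protein domain. LCN2 is also made by other cells under inflammation, among them glia and macrophages.

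All 8 are protein-coding genes, and 5 of them share a chromosome with another of the group. On GRCm38 with GENCODE release M21, S100a8 lies at chr3:90668978-90670035 on the plus strand and S100a9 at chr3:90692632-90695721 on the minus strand, so that 22596 bases separate them. Chromosome 9 holds Camp (chr9:109847379-109849617, minus), Ngp (chr9:110419747-110423012, plus) and Ltf (chr9:111019271-111042767, plus), within 1195 kb. Lcn2 lies at chr2:32384633-32388252 (minus), Retnlg at chr16:48872621-48874496 (plus) and Wfdc21 at chr11:83746940-83752642 (plus). Promoter sequences from RefSeq on GRCm38.p6 were found for 7 of the 8, without Wfdc21. The bases before the annotated start are shown for the calprotectin pair, whose messages were the most abundant, and for Ngp and Retnlg, a granule gene and a secreted-factor gene with few counts outside the neutrophil-like cells. Capitals mark matches to the C/EBP-type letters TTNNGNAA or the PU.1-type letters GAGGAA on either strand.
S100a8 (chr3:90668821-90668977, plus): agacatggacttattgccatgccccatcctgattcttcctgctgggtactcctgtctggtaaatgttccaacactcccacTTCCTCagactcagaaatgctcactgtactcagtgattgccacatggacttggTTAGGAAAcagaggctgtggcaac
S100a9 (chr3:90695722-90695971, minus): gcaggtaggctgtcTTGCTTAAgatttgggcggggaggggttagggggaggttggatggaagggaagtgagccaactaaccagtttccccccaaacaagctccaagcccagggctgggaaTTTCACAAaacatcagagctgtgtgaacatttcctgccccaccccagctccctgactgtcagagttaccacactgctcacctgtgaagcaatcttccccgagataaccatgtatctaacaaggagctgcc
Ngp (chr9:110419558-110419746, plus): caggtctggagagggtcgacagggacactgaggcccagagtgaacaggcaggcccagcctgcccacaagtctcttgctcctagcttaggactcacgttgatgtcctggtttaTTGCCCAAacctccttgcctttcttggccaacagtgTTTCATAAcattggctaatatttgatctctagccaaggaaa
Retnlg (chr16:48872358-48872607, plus): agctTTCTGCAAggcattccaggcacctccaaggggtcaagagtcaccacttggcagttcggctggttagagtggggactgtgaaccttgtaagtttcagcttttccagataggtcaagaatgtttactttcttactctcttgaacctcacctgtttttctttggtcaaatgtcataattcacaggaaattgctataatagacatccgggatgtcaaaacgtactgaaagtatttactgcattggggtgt
C/EBP factors and PU.1 are regulators of granulocyte genes. Matches were counted in windows of 250 bases before the RefSeq start. These can run past the GENCODE start, where the printed bases end, so that a counted match may lie beyond the printed bases, as TATAAA of S100a8 does. The C/EBP-type letters were found in 6 of the 7 genes, with Camp the exception, and in 36.8% of 32851 promoters. The PU.1-type letters were found in 3 of the 7 (S100a8, Lcn2 and Ltf) and in 23.3% of promoters. The AP-1-type letters TGANTCA were found in 0 of the 7 and in 6.75% of promoters, and TATAAA on the gene's own strand in S100a8 alone and in 7.59% of promoters. A match is a run of letters in these windows, and binding was not measured.

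The 25 libraries held 30958 cells, from 155 to 3800 per library, with 486649 to 33204422 UMIs and median depths of 1577 to 11233 UMIs per cell. Per the deposited cell type code, 13289 cells were microglia, 12841 macrophages (a code whose cells also carry monocyte markers), 2712 dendritic-like and 2116 neutrophil-like. The neutrophil-like code, which is also cluster 16 of the 16 deposited clusters, had 10 of 10 neutrophil markers outside the 8 genes at 20 or more counts per 1000000 counts of the same cells (CPM) and 2-fold above all other cells. Those markers include Csf3r, Cxcr2, Mmp9 and Ly6g. Its median depth was 2154 UMIs per cell, against 3062 in microglia, 9144 in macrophages and 11361 in dendritic-like cells. In all, 127 barcode sequences occurred in more than 1 library, on 254 cells, 14 of them neutrophil-like.

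Counts of the 8 genes lay mainly in the neutrophil-like cells, and 2 of the genes, S100a8 and S100a9, supplied most of them. S100a8 and S100a9 made up 8.294% of all UMIs of the neutrophil-like cells, and the 8 genes together 8.848%. Of all S100a8 UMIs in the series, 93.71% lay in the 2116 neutrophil-like cells. The share was 98.27% for S100a9, 97.06% for Ngp, 95.15% for Camp, 99.3% for Retnlg and 87.8% for Ltf. It was lower for Lcn2 (74.87%) and Wfdc21 (77.41%), and macrophages held 21.64% and 21.43% of the UMIs of those genes. Cell types and clusters were drawn from expression in the same cells, so these differences are given without a test.

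Over the summed neutrophil-like cells, S100a8 stood at 46830 CPM and S100a9 at 36110 CPM. Lcn2 followed at 2427 CPM, Retnlg at 1291 CPM and Wfdc21 at 1123 CPM. The secondary granule genes Ngp, Camp and Ltf were lower, at 328.5, 248.2 and 119.5 CPM. Because 3′ UMIs count 1 tag per molecule, these levels carry no length term, but capture may differ between genes. D3_conflict 1 held 42.39% of the neutrophil-like cells. Without it the levels were 63280 CPM for S100a8, 51710 for S100a9, 3876 for Lcn2, 541.2 for Ngp, 417.3 for Camp, 2076 for Retnlg, 1756 for Wfdc21 and 134.9 for Ltf, over 1219 cells. The order of the lower genes rests on single libraries. D2_infiltrating 1 held 4963 of the Retnlg counts, and without it Retnlg was at 304.6 CPM, Lcn2 at 1521 and Wfdc21 at 601.3. Over the 5 libraries with at least 20 neutrophil-like cells the median was 932.4 CPM for Wfdc21, 267 for Retnlg, 62.38 for Ltf, 9.143 for Ngp and 1.405 for Camp, so by median Wfdc21 lay above Retnlg, and Ltf above Ngp and Camp.

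In the other cell types S100a8 was at 109.6 CPM in macrophages, 33.19 in dendritic-like cells and 16.56 in microglia. S100a9 was at 17.79, 22.18 and 4.183 CPM in the same order, and Lcn2 at 27.94, 2.407 and 9.122 CPM. Without D3_conflict 1, S100a9 was at 13.13 CPM in macrophages and 12.15 in dendritic-like cells, so the order of those types rests on that library. Wfdc21 was at 12.38 CPM in macrophages, 1.027 in dendritic-like cells and 0.949 in microglia. Ngp, Camp, Retnlg and Ltf stayed near or below 1 CPM in all 3. Over libraries with at least 20 cells of a type, S100a8 ran from 17760 to 93460 CPM in neutrophil-like cells (5 libraries). It ran from 0 to 338.1 CPM in macrophages (20 libraries), 0 to 173.6 in dendritic-like cells (10) and 0 to 92.83 in microglia (19), so these 3 types overlapped each other and stayed below the neutrophil-like range. Lcn2 ran from 197.5 to 7893 CPM in neutrophil-like cells and reached at most 82.98 CPM in a library of another type. For Ngp and Camp the neutrophil-like range began at 0 and overlapped that of microglia, whose highest values were 4.902 and 5.311 CPM.

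By cluster, with cells pooled, cluster 16 was above each of the other clusters for all 8 genes, by margins that differed between genes. By library median this did not hold for Camp, at 1.405 CPM in cluster 16 (5 libraries) and 1.613 in cluster 1 (2 libraries). Levels here are over cells pooled across libraries. The next highest cluster for S100a8 was cluster 13 at 221 CPM, 211.9-fold lower, and for S100a9 cluster 13 at 45.56 CPM, 792.5-fold lower. By library, S100a8 in cluster 13 ran from 3.921 to 599.7 CPM with a median of 39.93 over 4 libraries, below the medians of cluster 12 (124.8), cluster 11 (79.07) and cluster 9 (57.98). Retnlg came next in cluster 13 with 2 counts, 1.139 CPM with an exact Poisson interval from 0.138 to 4.115. Lcn2 and Wfdc21 had the narrowest margins, with 79.66 and 33.63 CPM in cluster 12, 30.47-fold and 33.39-fold lower. By library the median of Lcn2 was 126.8 CPM in cluster 12 (6 libraries) and 1358 in cluster 16 (5), a closer pair than the pooled levels, and that of Wfdc21 was 39.73 and 932.4 CPM. For Ngp and Camp the next was cluster 1 at 1.61 CPM for both, and cluster 1 consists of the 1887 microglia of the 2 control libraries. Ltf came next in cluster 15, the dendritic-like cells, at 1.027 CPM.

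**Figure D1:**
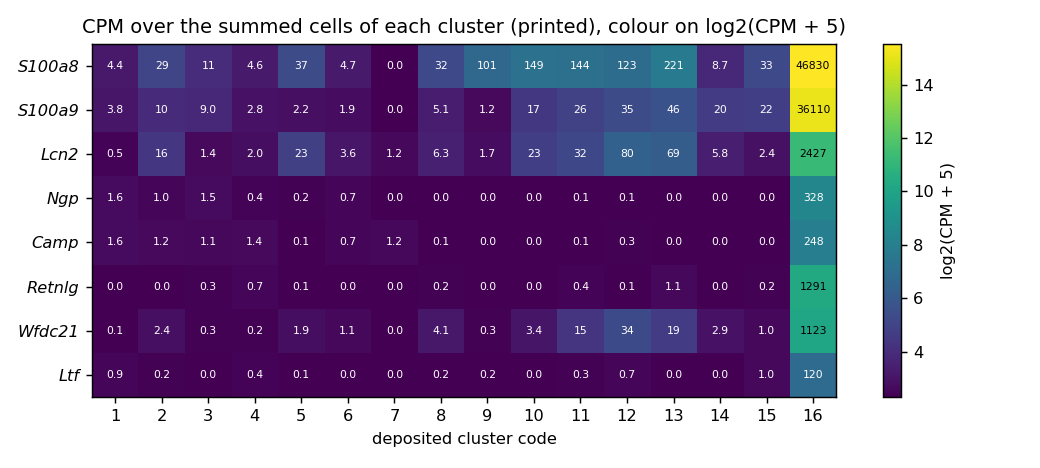
Each cell of the grid prints the CPM of 1 gene (vertical axis) over the summed cells of 1 deposited cluster (horizontal axis), coloured on log2(CPM + 5). Cluster 16, the neutrophil-like cells, stands at 46830 CPM for S100a8 against 221 CPM in cluster 13, while Lcn2 and Wfdc21 reach 79.66 and 33.63 CPM in cluster 12.

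The share of cells with a UMI separated the 8 genes further. S100a8 was seen in 93.62% of neutrophil-like cells (95% exact binomial interval 92.49% to 94.62%) and S100a9 in 83.93% (82.3% to 85.47%). Lcn2 was seen in 44.85%, Wfdc21 in 36.29%, Retnlg in 15.08% and Ltf in 7.42%. Ngp was seen in 1.607% of the cells and Camp in 0.3308%. Single libraries moved these shares: without D3_conflict 1 they were 23.46% for Retnlg, 4.43% for Ltf and 2.707% for Ngp, and without D2_infiltrating 1 they were 8.875% for Retnlg, 0.4226% for Ngp and 0.2113% for Camp. Ngp and Camp were seen in few cells in each case, so the CPM of these granule genes came from few cells. Thinned to 700 UMIs per cell, the shares were 89.87% for S100a8, 77.57% for S100a9, 32.92% for Lcn2, 24.05% for Wfdc21, 10.43% for Retnlg, 3.321% for Ltf, 0.768% for Ngp and 0.231% for Camp. At that depth S100a8 was seen in 4.298% of macrophages, 1.064% of microglia and 0.7839% of dendritic-like cells, against 20.18%, 3.319% and 2.323% unthinned. Without D3_conflict 1 the thinned share of dendritic-like cells was 0.4251%. Lcn2 was seen in 1.508% of macrophages and 0.5385% of microglia, against 9.548% and 1.761% unthinned. Intervals cover counting error only.

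Neutrophil-like cells were found in 14 libraries and numbered at least 20 in 5 of them, at D1, D2 and D3. They made up 10.29% of D1_infiltrating 1 (188 cells), 25.34% of D1_infiltrating 2 (702), 28.12% of D2_infiltrating 1 (223), 6.764% of D2_mixed 2 (51) and 23.61% of D3_conflict 1 (897). The 2 control, 5 D10 and 2 D21 libraries held 0 of them. All of these 5 libraries but D2_mixed 2 lie in 1 sequencing pool. In D2_infiltrating 1 S100a8 stood at 93460 CPM, followed by D1_infiltrating 2 at 59060, D1_infiltrating 1 at 50230, D3_conflict 1 at 24130 and D2_mixed 2 at 17760. S100a9 gave 93220, 38850, 43780, 14580 and 12320 CPM in the same libraries. The highest and lowest values of both genes came from the 2 D2 libraries, on either side of the D1 values.

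The other genes spread more widely over those libraries. Lcn2 ran from 197.5 CPM in D2_mixed 2 through 428.2 in D3_conflict 1, 1358 in D1_infiltrating 1 and 3047 in D1_infiltrating 2 to 7893 in D2_infiltrating 1. Wfdc21 was at 4267 CPM in D2_infiltrating 1, 1086 and 932.4 in the D1 libraries, 249.4 in D3_conflict 1 and 72.77 in D2_mixed 2. Retnlg ran from 31.19 CPM in D2_mixed 2 to 7238 in D2_infiltrating 1, with a median of 267. D2_infiltrating 1 was the highest library for each of the 8 genes, and its neutrophil-like cells had a UMI of Retnlg in 67.71% against 3.679% to 14.25% in the other 4 libraries.

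Within a library the cells also differed. In D2_infiltrating 1 the per-cell S100a8 level had a median of 79320 CPM, with 15170 and 142400 CPM at the 10th and 90th percentiles. In D3_conflict 1 the same percentiles were 408.8, 14190 (the median) and 58770 CPM. Median depth was 2871 UMIs in the first of these and 2223 in the second. The cells of D3_conflict 1 thus reached to far lower levels than those of D2_infiltrating 1.

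**Figure D2:**
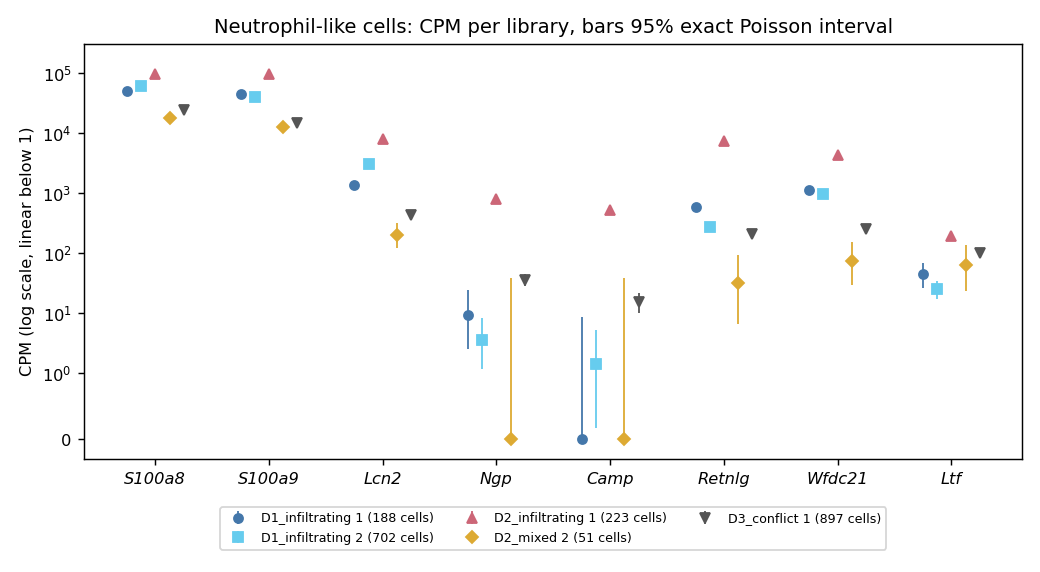
CPM of each gene over the summed neutrophil-like cells of each of the 5 libraries with at least 20 of them, on a log axis that is linear below 1, with 95% exact Poisson intervals for counting error. D2_infiltrating 1 is the highest point for all 8 genes, and Ngp and Camp fall to 0 in D2_mixed 2.

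To ask whether the level in neutrophil-like cells differed between D2 and D1, 2 libraries of each were fitted with edgeR's quasi-likelihood test, with 1 residual degree of freedom. edgeR called 0 of 5516 genes (0.0%) at a Benjamini-Hochberg adjusted p of 0.05, and 0 of the 6 genes of this group that were tested. At an unadjusted p under 0.05 there were 21 genes, 1 of them in the group (Ltf), and DESeq2 also called 0 genes. The log2 change at D2 was -0.37 for S100a8 (SE 1.04), -0.23 for S100a9 (SE 1.06), -0.57 for Lcn2 (SE 1.68), 0.76 for Retnlg (SE 1.64) and 1.87 for Ltf (SE 0.82), each with an adjusted p of 1.0. The SE was larger than the change for each of these genes but Ltf, which stood at 43.43 and 24.59 CPM in D1_infiltrating 1 and 2 and at 191 and 62.38 CPM in D2_infiltrating 1 and D2_mixed 2, without overlap.

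Ngp and Camp were carried almost wholly by 5 cells. With at least 10 UMIs of either gene, these were 1 cell of D1_mixed 1, 3 of D2_infiltrating 1 and 1 of D3_conflict 1, all in cluster 16. They held 96.08% of the Ngp, 99.75% of the Camp and 52.78% of the Ltf UMIs of the neutrophil-like cells. The D1_mixed 1 cell alone carried 957 Ngp, 807 Camp, 178 Ltf, 407 Lcn2, 2471 S100a8 and 3237 S100a9 UMIs among its 14762. The 5 cells were chosen by Ngp and Camp, so their level of those genes is no finding.

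Other genes were read in the 5 cells, as a description of few cells. S100a8 was at 178300 CPM in them against 45760 in the other neutrophil-like cells, and S100a9 at 219800 against 34610, so that S100a9 exceeded S100a8 there. Lcn2 was at 21700 against 2270 CPM, and Retnlg at 17650 against 1158. Since 3 of the 5 come from D2_infiltrating 1, the library highest for all 8 genes, the cells were also set beside the other neutrophil-like cells of their own library. There the 3 cells ran from 116700 to 214100 CPM for S100a8 against 91160, and from 17110 to 24890 CPM for Lcn2 against 7540. For Retnlg they ran from 2911 to 50470 CPM against 6926, so Retnlg did not stand apart in each of them. Nor did S100a8, whose per-cell level in that library was 142400 CPM at the 90th percentile. For Lcn2 that percentile was 16010 CPM, below the 3 cells. Cebpe, a transcription factor of granule maturation, was at 590.1 against 43.94 CPM and was seen in 3 of the 5, with 19 of its UMIs in the D1_mixed 1 cell and 4 in the rest. Without that cell it was at 165.2 CPM. Ly6g and Mmp8, the gene of neutrophil collagenase, were seen in 5 of 5, with Mmp8 at 2335 against 141.2 CPM. Csf3r and Cxcr2, receptors of mature neutrophils, were at 282.2 against 1169 CPM and 564.4 against 886.9, with 0 UMIs of both in the D1_mixed 1 cell, which had the most UMIs of the 5. Csf3r was seen in 3 of the 5 and Cxcr2 in 4. With D1_mixed 1 left out, Csf3r was at 454.2 against 1169 CPM, and Cxcr2 was no longer lower, at 908.5 against 887.7. Within D2_infiltrating 1 the 3 cells together were at 505.7 against 1767 CPM for Csf3r and at 955.2 against 2412 CPM for Cxcr2. The D3_conflict 1 cell was at 311.6 against 1005 CPM for Csf3r and, the other way, at 778.9 against 433.5 CPM for Cxcr2. None of the 5 cells had a UMI of the division genes Mki67 and Top2a, of Fcnb, or of the primary (azurophil) granule genes Elane, Mpo, Prtn3 and Ctsg. In the other neutrophil-like cells Mki67 was at 6.277 CPM, Top2a at 1.465, Prtn3 at 14.85, Mpo at 0.6277 and Ctsg at 0.2092. Fcnb and Elane were at 0 there. At such low levels, 0 UMIs in 5 cells does not set those cells apart.

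Detection of Lcn2, Wfdc21 and Retnlg was compared pair by pair over the neutrophil-like cells. Lcn2 was seen in 72.66% of cells with a Wfdc21 UMI and in 29.01% of cells without one, at median depths of 2332 and 2087.5 UMIs. By library these shares were 65.96% and 32.98% in D1_infiltrating 1, 76.12% and 35.84% in D1_infiltrating 2, and 94.25% and 71.43% in D2_infiltrating 1. They were 50% and 17.02% in D2_mixed 2, on 4 cells with Wfdc21, and 52.58% and 23.47% in D3_conflict 1, so the first was higher in 5 of 5 libraries. Wfdc21 was seen in 77.12% of cells with Retnlg and 29.05% without, at median depths of 2575 and 2115 UMIs. By library these shares were 84.62% and 44.44% in D1_infiltrating 1, 62% and 37.71% in D1_infiltrating 2, 89.4% and 54.17% in D2_infiltrating 1, 50% and 6.122% in D2_mixed 2 and 60.61% and 20.14% in D3_conflict 1. Lcn2 was seen in 78.37% of cells with Retnlg and 38.9% without, and the first share was higher in 4 of 5 libraries. In D2_mixed 2, with 2 cells that had Retnlg, the shares were 0% and 20.41%. Retnlg was seen in 9.554% of cells with an Ltf UMI and in 15.52% of those without. That order did not hold in each library, since the shares were 19.23% and 14.05% in D1_infiltrating 2 and 71.43% and 67.59% in D2_infiltrating 1. Depth differed between the cells compared, and its part was not tested.

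Other genes of the neutrophil programme were read from lists in the same cells. Of 18 further secondary and tertiary granule genes, 10 were at 20 or more CPM and 2-fold above all other cells pooled (on CPM + 5), limits that 6.47% of all 16945 genes with a count passed, and 20.8% of the 5276 genes at 20 or more CPM. Among the 10 was Mmp9 (932.9 CPM), the gelatinase of tertiary granules. Of 15 receptor and surface genes, 13 passed these limits, with Csf3r, the receptor for G-CSF, at 1162 CPM and Cxcr2, a chemokine receptor, at 884.3. Among 8 granulocyte transcription factors 4 passed, namely Cebpe (48.35 CPM), Cebpb (3065), Cebpd and Mxd1 (645.6). Macrophages, a part of the other cells, were at 1732 CPM for Cebpb, and at 558.6 CPM for Clec4d and 211.8 for Clec4e, where neutrophil-like cells were at 886.8 and 317.5. None of the 5 azurophil granule genes and none of the 6 division genes passed both limits. Prtn3, an azurophil protease, was at 14.73 CPM here and 52.52 in macrophages. Of 9 other S100 genes only S100a11 passed (2136 CPM), and macrophages were at 1009 CPM for it.

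Receptors for the products were spread over the cell types. Tlr4, a receptor for calprotectin, was at 72.84 CPM in neutrophil-like cells, 30.16 in macrophages, 23.24 in microglia and 11.23 in dendritic-like cells. Ager, which encodes the receptor RAGE, was at 2.905 CPM in neutrophil-like cells and under 1 CPM in the other types. Slc22a17, a receptor for lipocalin 2, was at 19.1 CPM in microglia and 1.43 in macrophages.

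Across the 16 clusters, the genes whose pattern was nearest to the mean of the 8 genes' log2(CPM + 5) included Mmp9 (Pearson r 0.9804), Cxcr2 (0.9710), Il1f9 (0.9703) and Crispld2 (0.9697). They were picked from genes with at least 20 CPM in 1 or more clusters. Ngp was nearest to Krt83 (r 0.9965) and Ly6g (0.9956), Retnlg to Ankrd22 (0.9993) and Ly6g (0.9991), and Ltf to Asprv1 (0.9978) and Stfa2l1 (0.9977). S100a8 had looser neighbours, Mapk13 (0.9329) and Cebpe (0.9257), as had Lcn2 with Cebpe (0.9350) and Crispld2 (0.9344). Clusters are not independent samples, and cluster 16 sets these values in large part, since all of these genes are highest there.

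In microglia, Lcn2, S100a8 and Wfdc21 were higher 1 day after injury than after laminectomy alone and lower again later, while Ngp and Camp were seen in controls and at D10. S100a8 was at 4.288 and 4.855 CPM in the 2 control libraries and at 10.72, 44.74 and 92.83 CPM in D1_mixed 1, 2 and 3. Lcn2 was at 0.536 and 0.5394 CPM in controls and at 20.34, 33.34 and 40.38 CPM at D1, and the groups did not overlap for either gene. Wfdc21 was at 0.1787 and 0 CPM against 0.4375, 1.995 and 6.034. S100a9 did not follow its partner: it was at 3.752 and 3.776 CPM in controls against 4.594, 0.5699 and 1.625 at D1.

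The fit of microglia covered 17 resident and mixed libraries with time point and sex as terms, and 6 of the 8 genes passed its filter on low counts. Retnlg and Ltf, with 11 and 13 UMIs in all microglia, did not. At D1 against Ctrl (n = 3 and 2), edgeR called 4 of the 6 genes where 46.6% of 10801 genes were called, so that calls were common among all genes. Over the 6 the median log2 change was 1.41, and -0.01 over all genes. In edgeR's fit Lcn2 rose by 6.19 on the log2 scale (SE 0.91, adjusted p = 6.57e-05), S100a8 by 3.96 (SE 1.00, adjusted p = 0.0039) and Wfdc21 by 5.69 (SE 1.69, adjusted p = 0.0108). Wfdc21 rested on 35 counts at D1 against a single control count (1), which gives a ratio of 21.05 with a counting interval of 3.538 to 854.9. The change of S100a9, -1.15 (SE 1.07), did not pass (edgeR adjusted p = 0.399).

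Ngp was lower at D1, at 0 counts in all 3 libraries against 12 counts in the controls, at least 6.65-fold lower by a floor of 3 counts over the group (edgeR adjusted p = 0.0163). Camp was at 1 count against 12, a ratio of 0.05012 with a counting interval of 0.001172 to 0.3387, and did not pass (edgeR adjusted p = 0.0547). That result turned in some alternatives. Camp was called without D3_mixed 2 (edgeR adjusted p = 0.0468) or D3_resident 2 (0.0498). It was also called with median-of-ratios scaling (0.0463) and without a filter on low counts (0.0266). In the 2 controls Ngp was at 1.429 and 2.158 CPM and Camp at 1.608 and 1.618. Those libraries held 0 cells coded neutrophil-like. No microglial cell held more than 2 UMIs of either gene.

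Single libraries decided several of these calls. Without Ctrl_resident 1 the adjusted p of S100a8 was 0.0542, and without Ctrl_mixed 1 that of Ngp was 0.0583. DESeq2 did not call Ngp (adjusted p = 0.455). That of Wfdc21 was 0.0894 without Ctrl_mixed 1, 0.062 without Ctrl_resident 1 and 0.0834 without D2_mixed 1. Lcn2 passed in each of the 17 fits that left out 1 library (edgeR adjusted p 2.6e-05 to 0.00357). Leaving out Ctrl_mixed 1 or D21_mixed 1 left 2 of the genes called. With mixed libraries alone, which leaves 1 control, 0 were called, and Lcn2 had an adjusted p of 0.0676. The D1 libraries share 1 sequencing pool and the controls lie in 2 others, so in this contrast the pool cannot be told apart from the time point.

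Markers of other cells were read in the same microglia. Of 9 macrophage markers listed, Fn1, Gpnmb, Ms4a7 and Cd36 rose at D1, while Lyz2 was not called. Of 9 microglia markers 8 fell. The control microglia all lay in cluster 1 and the D1 microglia in other clusters, most of them in cluster 5. The sum of the 10 neutrophil markers outside the 8 genes ran from 193.1 to 214.9 CPM in controls and from 23.65 to 128.8 at D1. Csf3r, which control microglia carried at 190.4 to 210.6 CPM, made up most of the control sum. Without it the range was 2.697 to 4.288 CPM in controls, with 6 of 10 markers at 0, and 3.5 to 120.7 at D1, with Mmp9 and Ly6g at 0. Ly6g was at 0 in the microglia of every time point. Neutrophil-like cells made up 0.8071%, 0.2488% and 0.1452% of D1_mixed 1, 2 and 3, and S100a8 was highest in the microglia of D1_mixed 3. The same library had the highest sum of the 10 markers at D1 (128.8 CPM, against 26.25 and 23.65 in D1_mixed 1 and 2). It was also the D1 library with a count of Cxcr2 (0.4642 CPM). Over all microglia the highest of these markers after Csf3r was Il1r2, at 10.56 CPM. G0s2 was at 2.75 CPM and the others at 0.6779 or less. The part of these values in the result was not tested.

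Later time points were set against the same 2 control libraries. At D2 (n = 3) edgeR called 2 of the 6 genes, where 29.7% of genes were called. Lcn2 was 3.36 higher on the log2 scale (SE 0.95, adjusted p = 0.0147), and Camp was at 0 counts, at least 5.33-fold lower (adjusted p = 0.0468). Lcn2 lost its call without Ctrl_mixed 1 (adjusted p = 0.14), Ctrl_resident 1 (0.0803) or D2_mixed 1 (0.135). Camp kept its call in 7 of the 15 fits without 1 library that tested it, those without Ctrl_resident 1, D1_mixed 3 or any of the 5 D3 libraries, and with sequencing pool as a term 0 of the genes were called.

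Retnlg and Ltf were not tested at any time point. At D3 (n = 5), D10 (n = 3) and D21 (n = 1) edgeR called 0 of the 6 genes against Ctrl, where 37.6%, 10.3% and 6.98% of genes were called. At an unadjusted p under 0.05 there were 3 at D3 (Lcn2, Ngp and Camp), 0 at D10 and 0 at D21, and DESeq2 called 0 in each. At D3, 2 of the genes were called without Ctrl_resident 1, and 1 without D3_mixed 1, D3_mixed 3, D10_mixed 1 or D10_mixed 2. In microglia at D3, S100a8 was at 2.061, 0, 17.6, 3.971 and 5.778 CPM, and Lcn2 at 0, 1.688, 0.6287, 1.985 and 5.778 CPM. In the D21 library S100a8 was at 1.524 CPM, Lcn2 at 0.2177 and the other 6 genes at 0. With 1 library at D21, its spread was taken from the rest of the fit.

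Against D1, the early genes were lower at D3 and D10. These comparisons share their D1 libraries with each other and with the contrast against Ctrl. At D3 edgeR called 3 of the 6 genes, all lower, where 18.8% of genes were called (10.2% lower). S100a8 changed by -2.85 on the log2 scale (SE 0.70, adjusted p = 0.00979), Lcn2 by -3.62 (SE 0.57, adjusted p = 0.000456) and Wfdc21 by -4.00 (SE 1.37, adjusted p = 0.0489). Without D1_mixed 3, the library with the highest S100a8, S100a8 changed by -1.98 (adjusted p = 0.0632) and only Lcn2 was called. Wfdc21 passed in 3 of the 15 fits without 1 library that tested it, those without D1_mixed 1, D10_mixed 1 or D10_resident 1, and DESeq2 did not call it (adjusted p = 0.141). The D1 libraries share their sequencing pool with none of the D3 libraries, so the pool cannot be told apart from the time point here either. Other lists moved in this contrast. Of 9 microglia markers 4 rose (P2ry12, Siglech, Olfml3 and Sparc), and of 9 macrophage markers listed Gpnmb, Ms4a7 and Lyz2 rose. All 6 division genes rose. Of 4 neutrophil markers tested outside the 8 genes Csf3r rose and Il1r2 fell. The sum of the 10 such markers was 32.26 to 79.41 CPM at D3, and 0 to 7.941 without Csf3r, with Ly6g and Stfa2l1 at 0. The part of these in the result was not tested.

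At D10 against D1 (n = 3 and 3) all 6 tested genes were called by edgeR, some higher and some lower, where 33.7% of genes were called. Lcn2 changed by -4.13 (SE 0.60, adjusted p = 0.000177), S100a8 by -2.64 (SE 0.73, adjusted p = 0.0107) and Wfdc21 by -3.40 (SE 1.09, adjusted p = 0.0238). The other calls were of higher genes. S100a9 rose by 2.21 (SE 0.76, edgeR adjusted p = 0.0338), at 22.47, 6.773 and 0.4435 CPM in D10_mixed 1, D10_mixed 2 and D10_resident 1. Ngp had 28 counts at D10 against 0 at D1, at least 10.1-fold higher (edgeR adjusted p = 0.00969). Camp had 32 counts against 1, a ratio of 34.68 with a counting interval of 5.793 to 1412 (edgeR adjusted p = 0.0188).

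The higher values at D10 lay in 2 of the 3 libraries. Ngp was at 4.902, 0.9341 and 0 CPM and Camp at 5.311, 1.401 and 0 CPM in D10_mixed 1, D10_mixed 2 and D10_resident 1. None of these libraries held a neutrophil-like cell. Of the 4 neutrophil markers outside the 8 genes tested at D10 against D1, Csf3r and G0s2 rose and Il1r2 fell. The sum of the 10 such markers was 103.3 to 126.1 CPM at D10, and 3.548 to 7.473 without Csf3r, with Il1r2, Ly6g, Cd177 and Stfa2l1 at 0. Of 9 microglia markers 6 rose, P2ry12 and Sall1 among them, and the part of these in the result was not tested. The 2 mixed D10 libraries and the mixed control library lie in 1 sequencing pool, and D10_resident 1 and Ctrl_resident 1 in another, so that in D10 against D1 the pool cannot be told apart from the time point. Without D10_mixed 1 the change of S100a9 was 0.87 (edgeR adjusted p = 0.504), and without D1_mixed 2, D1_mixed 3 or D10_mixed 2 its adjusted p was 0.134, 0.0831 and 0.0528. S100a8 lost its call without D1_mixed 3 (0.0562) or D10_mixed 2 (0.0638). It also lost it with mixed libraries alone (-2.42, edgeR adjusted p = 0.0751). With replicate number as a block in the numbered mixed libraries its change was -1.24 (edgeR adjusted p = 0.261). Camp lost its call without D1_mixed 2 (0.0665) or D1_mixed 3 (0.052), and Wfdc21 without D10_mixed 2 (0.105) or D10_resident 1 (0.0598). In all, 2 genes were called without D1_mixed 3, 3 without D10_mixed 1, D10_mixed 2 or D21_mixed 1, and 2 by DESeq2 (S100a8 and Lcn2).

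**Figure D3:**
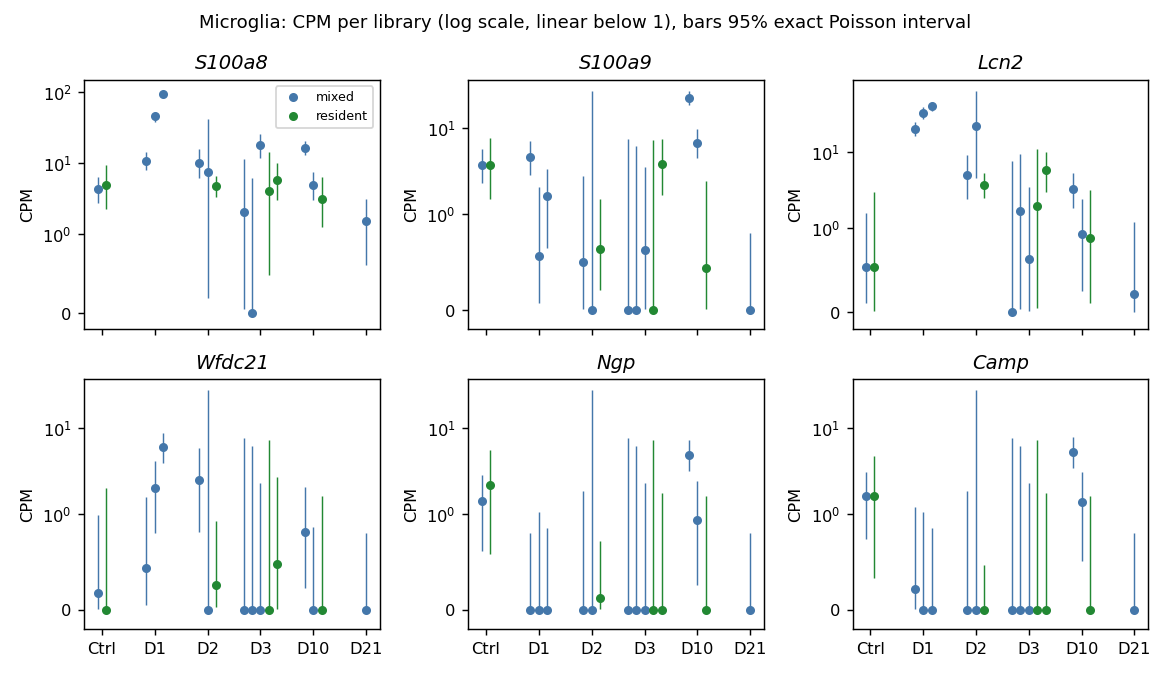
CPM of 6 genes over the summed microglia of each resident or mixed library, by time point, on log axes that are linear below 1, with 95% exact Poisson intervals. S100a8 and Lcn2 reach their highest values in D1_mixed 3 (92.83 and 40.38 CPM), D1_mixed 1 lies within the range of later libraries for both, and Ngp and Camp lie above 0.5 CPM in the 2 control libraries and the 2 mixed D10 libraries alone.

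Other genes of the lists in microglia at D1 against Ctrl moved both ways. Over this contrast 46.6% of all genes were called. Of the other granule genes 3 of 11 tested rose (Ltb4r1, Adam8 and Lrg1) and 1 fell (Olfm4). Of the receptor and surface genes 4 of 8 rose and 2 fell. The inhibitory decoy receptor Il1r2 rose by 5.99 on the log2 scale and Trem1, an amplifier of myeloid activation, by 7.14, while Csf3r changed by -3.05. All 7 of the other S100 genes tested rose, with S100a4 at 3.75, S100a6 at 3.11 and S100a10 at 3.27. Among 5 transcription factors 0 rose and 2 fell (Cebpd and Mxd1). No azurophil granule gene was tested. At D10 against D1, where 33.7% of all genes were called, 3 of the 11 other granule genes rose (Olfm4, Lyz2 and Slpi) and 3 fell (Ltb4r1, Adam8 and Lrg1). Of the 8 receptor and surface genes 3 rose (Csf3r, Cd33 and Cxcr4) and 3 fell (Il1r2, Trem1 and Clec4e).

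In macrophages S100a9 fell between D1 and D10 while S100a8 did not pass, and levels varied greatly between libraries of 1 time point. S100a9 was at 17.77, 54.18, 0 and 2.433 CPM in D1_infiltrating 1, D1_infiltrating 2, D1_mixed 1 and D1_mixed 3. At D10 it was at 0 in both infiltrating libraries and at 1.627 and 1.109 CPM in the mixed ones. The groups overlapped for S100a9, since D1_mixed 1 was at 0. S100a8 was at 73.86, 244.8, 4.237 and 338.1 CPM at D1 and at 21.81, 1.653, 203.4 and 19.97 CPM at D10 in the same order of libraries, so the groups overlapped. Lcn2 was at 35.41, 47.19, 0 and 36.49 CPM at D1 and at 0.7434, 0, 82.98 and 22.19 CPM at D10. D1_mixed 1 held 28 macrophages, and D10_mixed 1 held 53.

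The macrophage fit covered 15 infiltrating and mixed libraries and tested 4 of the 8 genes, with D1 as reference because controls held no macrophages. At D10 against D1 (n = 4 and 4) edgeR called 1 of the 4, where 14.4% of 8577 genes were called (7.04% lower). S100a9 changed by -5.92 on the log2 scale (SE 1.55, adjusted p = 0.0227). It rested on 2 counts at D10 against 1138 at D1, a ratio of 0.009079 with a counting interval of 0.001098 to 0.03287. S100a8 changed by -1.53 (SE 1.11, edgeR adjusted p = 0.38), Lcn2 by -0.74 (adjusted p = 0.709) and Wfdc21 by -1.73 (adjusted p = 0.409). S100a9 lost its call without D1_infiltrating 2 (-4.17, adjusted p = 0.198) or D10_infiltrating 1 (-4.56, adjusted p = 0.0866), which leaves 0 of the 4 called. Without the cells of clusters 2 and 10, S100a8 was called as well (-3.48, adjusted p = 0.0202).

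The macrophages with high S100a9 came from libraries rich in neutrophil-like cells. D1_infiltrating 1 and 2 held 10.29% and 25.34% of them, and the 4 D10 libraries 0. The 10 neutrophil markers outside the 8 genes summed to 33.9 to 284.6 CPM in macrophages at D1, none of them at 0 in the group, and to 69.63 to 118.7 CPM at D10, with Mmp9, Ly6g and Stfa2l1 at 0. Their part in the result was not tested, and the pool cannot be told apart from the time point here. Other markers moved in the same contrast: of 8 microglia markers tested 4 rose (P2ry12, Tmem119, Gpr34 and Olfml3; median log2 change 2.04), 5 of 9 macrophage markers fell, Fn1 and Mrc1 among them, and the B cell marker Cd79b and the NK cell marker Nkg7 rose. The part of these in the result was not tested either. In single macrophages S100a9 was uneven: 32 of 12841 cells, with 10 or more UMIs each, held 78.07% of its counts. For S100a8 178 cells held 60.85%.

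**Figure D4:**
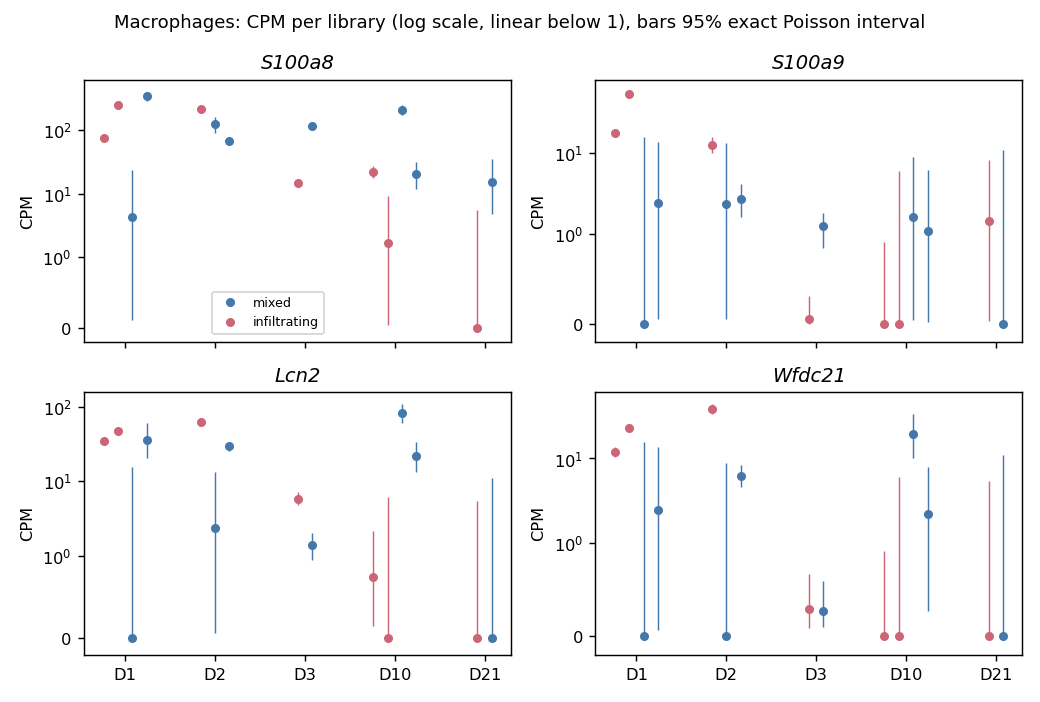
CPM over the summed macrophages of each infiltrating or mixed library, by time point, on log axes that are linear below 1, with 95% exact Poisson intervals. Both genes of the pair overlap between the time points. S100a9 lies between 0 and 54.18 CPM at D1 and between 0 and 1.627 CPM in the 4 D10 libraries. S100a8 lies between 4.237 and 338.1 CPM at D1 and between 1.653 and 203.4 CPM at D10.

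At D2 and D3 against D1, edgeR called 0 of 8577 genes (0.0%) in macrophages, and 0 of the 4 tested here. At an unadjusted p under 0.05 there were 123 genes at D2, 0 of them among the 4, and 612 at D3, 3 of them among the 4 (S100a9, Lcn2 and Wfdc21). DESeq2 called 0 genes at D2 and 16 at D3, 0 of the 4 in either. At D3 S100a9 changed by -4.83 (SE 1.38, edgeR adjusted p = 0.644), with 0.05713 CPM in D3_infiltrating 1 and 1.269 in D3_mixed 3. At D21 against D1 0 of the 4 were called by edgeR, 1 at an unadjusted p under 0.05 (Lcn2) and 0 by DESeq2, where 3.56% of genes were called. Lcn2 and Wfdc21 were at 0 counts in both D21 libraries, at least 13.9-fold and 5.84-fold lower than at D1. All 4 contrasts share the D1 libraries.

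Other listed genes in macrophages at D10 against D1 moved both ways. Over this contrast 14.4% of all genes were called, and no list was tested against the other genes. Of 11 receptor and surface genes tested, 6 fell and 1 rose. Il1r2 changed by -8.22, Trem1 by -4.37, the formyl peptide receptor gene Fpr2 by -3.68 and the C-type lectin gene Clec4e by -3.29, while Csf3r rose by 1.29. Of 12 other granule genes 2 fell (Adam8 and Lrg1) and 1 rose (Cybb). Of 6 other S100 genes 2 fell, S100a6 by 1.94 and S100a11 by 1.96 on the log2 scale. Of the 6 division genes 3 rose (Mki67, Top2a and Cdk1). None of the 5 azurophil granule genes tested was called, and their median change was 5.30 on the log2 scale.

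In dendritic-like cells S100a8 was at 68.9 and 173.6 CPM in the 2 infiltrating D1 libraries and at 3.978 and 0 CPM in the 2 infiltrating D10 libraries. S100a9 was at 45.78 and 71.89 CPM against 0 and 0. The groups did not overlap for either gene, but edgeR called 0 of 7114 genes (0.0%) and 0 of the 3 tested here. The adjusted p was 0.0664 for S100a9 and 0.169 for S100a8. At an unadjusted p under 0.05 there were 725 genes, those 2 among them, and DESeq2 called 80 genes, 0 of the 3. Leaving out 1 library gave 2 calls among the 3 without D3_infiltrating 1 or D3_mixed 3, and 1 without D2_infiltrating 1 or D2_mixed 2. The 10 neutrophil markers outside the 8 genes summed to 151.9 to 188.5 CPM in dendritic-like cells at D1, with Ly6g and Stfa2l1 at 0, and to 44.94 to 75.57 CPM at D10, with 5 of them at 0, and their part was not tested. Few cells carried the counts of the pair, since 16 of 2712 dendritic-like cells held 94% of the S100a8 UMIs and 11 held 90.88% of the S100a9 UMIs.

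Over all cells of a library the infiltrating and resident sorts overlapped. In the 7 infiltrating libraries S100a8 ran from 0 CPM (D21_infiltrating 1) to 8446 (D2_infiltrating 1), with a median of 19.69. In the 5 resident libraries it ran from 4.855 CPM (Ctrl_resident 1) to 245.2 (D3_resident 1), with a median of 46.99. D3_resident 1 held 3.145% neutrophil-like cells. Of 10074 genes edgeR called 10.7%, and of the 4 genes tested here it called 0. DESeq2 also called 0 of the 4, and 0 had an unadjusted p under 0.05. The log2 change was 0.44 for S100a8 (SE 1.41), -0.19 for S100a9 (SE 2.40), 1.71 for Lcn2 (SE 2.05) and 2.96 for Wfdc21 (SE 4.55), with adjusted p from 0.652 to 0.974. With sequencing pool as a term, or without D3_infiltrating 1, 2 of the 4 were called.

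The balance between S100a8 and S100a9 differed between cell types. S100a8 made up 56.46% of the UMIs of the pair in neutrophil-like cells, 59.94% in dendritic-like cells, 79.83% in microglia and 86.03% in macrophages. Free RNA in the suspension, released from broken cells, can put such counts into any droplet. The shares were therefore compared within libraries, and the part of free RNA in them was not tested. In macrophages the S100a8 share was above that of the neutrophil-like cells of the same library in 12 of 13 libraries, and its 95% exact binomial interval lay above theirs in 10. In microglia it was above in 7 of 9, with the interval above in 4, and in dendritic-like cells in 4 of 7, with the interval above in 2 and below in 1. The neutrophil-like cells of many of these libraries were few, from 1 cell in D3_mixed 3 and 2 each in D1_mixed 2 and D1_mixed 3 to 14 in D2_resident 1, and the intervals cover the counting of UMIs only. In the 5 libraries with at least 20 neutrophil-like cells, the share was above in 5 of 5 for macrophages, with the interval above in 5, and in 4 of 5 for dendritic-like cells, with the interval above in 2 and below in 1. For microglia 1 such library was left, D2_mixed 2, with 1 UMI of S100a8 and 0 of S100a9, so the microglia comparison rests on libraries with 14 or fewer neutrophil-like cells.

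The same reading was made for Lcn2 against S100a9. The Lcn2 share of the pair was above that of the neutrophil-like cells of the same library in 11 of 11 libraries for macrophages, with the interval above in 10, and in 8 of 8 for microglia, with the interval above in all 8. For dendritic-like cells it was above in 6 of 6, with the interval above in 4. With at least 20 neutrophil-like cells it was above in 5 of 5 libraries for macrophages, with the interval above in 5, in 5 of 5 for dendritic-like cells, with the interval above in 3, and in the 1 library left for microglia. Cells of 1 library share their suspension, and these counts are descriptions of the libraries. For Wfdc21 against S100a9, the Wfdc21 share was above in 9 of 11 libraries for macrophages (interval above in 8), 6 of 6 for microglia (4) and 2 of 5 for dendritic-like cells (0). For Ngp against S100a8, the Ngp share was above in 1 of 13 libraries for macrophages (interval above in 1 and below in 1). It was above in 1 of 9 for microglia (interval above in 0 and below in 2) and in 1 of 7 for dendritic-like cells (0 and 0).

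Over libraries with at least 20 UMIs of the pair, the S100a8 share ran from 44.03% to 87.65% in neutrophil-like cells (13 libraries) and from 77.35% to 100% in macrophages (14). In microglia it ran from 41.8% to 98.74% (10 libraries), and libraries of 1 time point differed from each other. The share was 53.33% in Ctrl_mixed 1 (95% exact binomial interval 37.87 to 68.34%). At D1 it was 70% in D1_mixed 1 (57.87 to 80.38%, which overlaps the control interval), 98.74% in D1_mixed 2 and 98.28% in D1_mixed 3. At D3 it was 96.55% in D3_mixed 3 and 60% in D3_resident 2, and at D10 41.8% and 42% in D10_mixed 1 and 2. The interval was 34.68 to 49.18% in D10_mixed 1 and 28.19 to 56.79% in D10_mixed 2. Below 20 UMIs, Ctrl_resident 1 had 9 of S100a8 and 7 of S100a9 (56.25%), and D10_resident 1 had 7 and 1 (87.5%, interval 47.35 to 99.68%). These control and D10 libraries held 0 neutrophil-like cells.

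**Figure D5:**
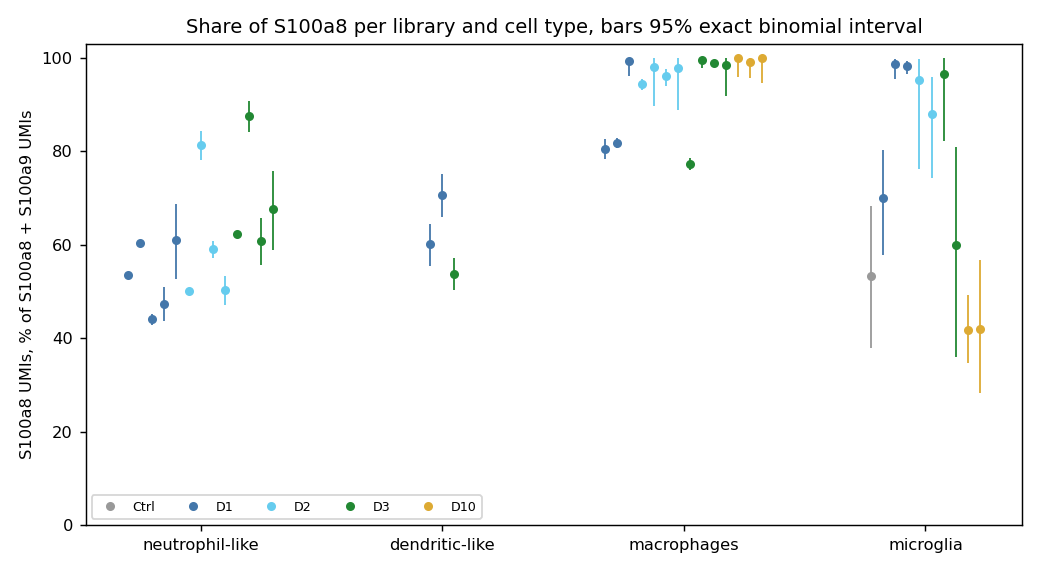
S100a8 UMIs as a percent of S100a8 plus S100a9 UMIs in each library with at least 20 UMIs of the pair, by cell type and coloured by time point, with 95% exact binomial intervals. Macrophages lie between 77.35% and 100%, neutrophil-like cells between 44.03% and 87.65%, and microglia reach from 41.8% in D10_mixed 1 to 98.74% in D1_mixed 2.

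Cluster 9 had the most one-sided balance among the larger clusters, with 2791 S100a8 UMIs against 34 of S100a9 (98.8% S100a8). S100a8 was seen in 39.67% of its 3554 cells and S100a9 in 0.6472%. The counts were spread thinly, with 1405 cells at 1 to 9 UMIs and 5 cells at 10 or more, which held 2.042% of them. Of these UMIs 2477 came from D3_mixed 3, which supplied 2676 of the cells. In that library cluster 9 was at 125.6 CPM for S100a8 and 1.318 for S100a9, and the library held 1 neutrophil-like cell. In some other libraries cluster 9 had S100a8 without S100a9, with 76 UMIs against 0 in D10_infiltrating 1 and 63 against 0 in D10_resident 1. Libraries differed: over the 9 with at least 20 such cells S100a8 ran from 0 to 125.6 CPM and S100a9 from 0 to 5.798. In cluster 11 the counts were concentrated instead: 109 cells with 10 or more UMIs held 77.37% of its S100a8, and in cluster 12 46 cells held 79.93%.

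Across the 17 resident and mixed libraries, the share of neutrophil-like cells was compared with the summed CPM of the 8 genes in microglia. Neither measure of the relation passed the threshold (Pearson r -0.04, permutation p = 0.876; Spearman rho 0.39, permutation p = 0.124; adjusted over these 2 measures 0.876 and 0.248; 100000 permutations, 2-sided). Without D2_mixed 2 and D3_resident 1, the libraries farthest from the median share, Pearson r was 0.02 (permutation p = 0.949) and rho 0.48 (permutation p = 0.0704). In the 12 mixed libraries alone it was -0.03 (permutation p = 0.932), with rho 0.57 (permutation p = 0.056). Pools held too few of these libraries for values within each pool.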

How the data were processed

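For each of the 25 libraries the deposited matrix holds raw counts (UMIs) of genes by cells. The authors also deposited a table with the sequencing pool, cluster code and cell type code of each cell. Per the submitters' processing notes, Cell Ranger 3.1.0 and the builds GRCm38 and mm10 were used. The codes carry no names, so cell types were named from marker lists. The deposited cells had at least 713 UMIs each. No further filter and no doublet caller were applied, and free RNA was not subtracted. The 8 genes and the gene lists were chosen with earlier results of these data known.

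Counts were summed per cell type and library, and sums of at least 20 cells were tested with edgeR 4.0.16 (R 4.3.3; TMM scaling, filterByExpr, quasi-likelihood test, 2-sided), with Benjamini-Hochberg adjustment over all genes and a threshold of 0.05. Terms were time point and sex, and sort where sorts were compared. A fit over all genes was tested on simulated data. P-values measure the spread between libraries, each a pool of 1 to 3 mice. Python 3.11.15, numpy 2.4.6 and scipy 1.17.1 gave shares, exact intervals and permutations. DESeq2 1.42.0 and the other alternatives are in the closing section. Shares of cells were thinned to 700 UMIs per cell, as the mean over all draws. Besides the 8 genes, the genes named are those of the lists and, by pattern over clusters, the 5 nearest to the mean of the 8 and the 2 nearest to each, some of which are not reported here. D3_conflict 1 entered no main fit, and an alternative coded it as infiltrating. The label of D2_infiltrating 1 reads female while its deposited sex code is that of the male libraries, and the label was used.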

Additional observations from a re-analysis of the deposited data

Results flagged for a closer look

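Of 18 combinations of a gene and a small group of libraries looked at, 8 held a value apart from the rest by Dixon's test. In continuous values chance flags about 1 in 20 groups. That rate does not hold where 1 library alone has counts, since that library then lies apart by construction. Of the 8 values, 6 rest on fewer than 12 counts. In microglia at D3 (n = 5), D3_resident 2 had 3.852 CPM of S100a9 on 8 counts, against 0 to 0.6287 in the others, and 0.4815 CPM of Wfdc21 on 1 count, against 0. In macrophages at D1 (n = 4), D1_infiltrating 1 had 0.2643 CPM of Ngp on 4 counts and 0.1321 CPM of Camp on 2 counts, against 0 in the others. D1_infiltrating 2 had 0.6867 CPM of Retnlg on 11 counts, against 0 to 0.06607. In macrophages at D10 (n = 4), D10_mixed 1 stood apart for several genes. It had 203.4 CPM of S100a8 on 125 counts, against 1.653 to 21.81, 19.53 CPM of Wfdc21 on 12 counts, against 0 to 2.219, and 3.254 CPM of Retnlg on 2 counts, against 0. That library held 53 macrophages.

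D3_conflict 1, whose labels disagree and which entered no main test, held 897 neutrophil-like cells, 23.61% of its cells. The control libraries held 0, and D3_infiltrating 1 held 0.3771%. The infiltrating libraries of D1 and D2 held 10.29%, 25.34% and 28.12%.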

How the results depend on the processing

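Leaving out 1 library at a time, the number of the 8 genes called ran from 2 to 5 in microglia at D1 against Ctrl, 0 to 2 at D2 and 0 to 2 at D3 against Ctrl, 1 to 3 at D3 against D1 and 2 to 6 at D10 against D1. It ran from 0 to 1 in macrophages at D10 against D1, 0 to 2 in dendritic-like cells and 0 to 2 between infiltrating and resident libraries. It stayed at 0 in the other contrasts where such fits were run, and neutrophil-like cells at D2 against D1 had none. Without D21_mixed 1, D10_mixed 1 or D1_mixed 3 the filter passed 3, 4 or 5 of the genes in microglia, by construction a smaller number to call.

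With mixed libraries alone, 0 were called at D1 against Ctrl (1206 of all genes, against 5034), 1 at D2 against Ctrl, 1 at D3 against D1 and 0 in macrophages at D10. DESeq2 called 3 at D1 against Ctrl (not Ngp, adjusted p = 0.455), 1 at D2 against Ctrl, 2 at D3 against D1 (not Wfdc21, adjusted p = 0.141) and 2 at D10 against D1. Without a filter on low counts, 4 were called at D2 and 2 at D3 against Ctrl, 2 in dendritic-like cells and 2 between infiltrating and resident. With sequencing pool as a term, 0 were called at D2 against Ctrl and 2 between infiltrating and resident. At least 50 cells per sum gave 1 at D2, median-of-ratios scaling gave 1 at D3 against Ctrl, and leaving out clusters 2 and 10 gave 2 in macrophages at D10. The cause of these shifts was not tested. All genes called against Ctrl ranged from 1585 to 3781 at D2, 255 to 4501 at D3 and 71 to 2404 at D10 over alternatives other than leaving out 1 library, and from 3370 to 5314 at D1, 718 to 3595 at D2, 1825 to 4420 at D3 and 254 to 1316 at D10 without 1 library.

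The replicate numbers of the numbered mixed libraries at D1, D3 and D10 did not pair them: same-numbered libraries had correlations of deviations from -0.187 to 0.134 (7 pairs), and others from -0.19 to 0.19 (14 pairs). With the replicate block in those libraries, 3 of the genes were tested. In that block, 2 were called at D3 against D1 and 2 at D10 against D1, and without the block, an alternative added after seeing the data, 1 and 2. The change of S100a9 in microglia at D1 against Ctrl ran from -3.74 to 0.03 without 1 library and reversed to 3.66 with mixed libraries alone (adjusted p = 0.894) and to 0.03 without Ctrl_mixed 1 (0.986). Pearson r of the relation across libraries changed sign to 0.02 without the 2 libraries farthest from the median and to 0.17 without S100a8 and S100a9 in the sum, while Spearman rho was 0.48 and 0.45, with none past the threshold. Depth limits Ngp, Camp, Retnlg and Ltf outside neutrophil-like cells, where 11 to 45 UMIs of each in all microglia left single counts to decide a library's value.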
